A study of Mus musculus with 40 samples.

Results

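The genes described here carry peptides to the cell surface on major histocompatibility complex (MHC) class I molecules and cut those peptides in the immunoproteasome. They are B2m, H2-K1, H2-D1, Tap1, Tap2, Tapbp, Psmb8, Psmb9, Psmb10 and Nlrc5, chosen by symbol with earlier results of these data known. Each was found among the 54331 gene rows of the deposited table. All 10 passed the limit on low values and stood among the 21367 genes tested.

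RNA of the cerebellum was sequenced in 40 libraries from male mice of the C57BL6 strain, after removal of ribosomal RNA. The labels give 4 genotypes (WT, INDY, CSB and DKO) and 2 treatments, SD and KD, read here as diets, and spell out none of these letters. Slc13a5, a citrate transporter also known as INDY, ran from 82.1 to 161 in the 19 WT and CSB libraries. Of the 21 libraries of INDY and DKO, 19 had 0 for it and the highest had 0.934. WT had 4 libraries on each diet and INDY 6 on each, while CSB had 6 on SD and 5 on KD, and DKO 4 on SD and 5 on KD. The labels give no age, no allele and no statement on which libraries came from separate animals, so p-values measure the spread between these libraries. Library numbers given below are those of the labels.

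Cells cut proteins in the proteasome, and interferons induce Psmb8, Psmb9 and Psmb10, whose products replace the constitutive catalytic subunits encoded by Psmb5, Psmb6 and Psmb7. The TAP transporter moves the peptides into the endoplasmic reticulum, where tapasin holds it to empty class I molecules. Each class I molecule pairs a heavy chain with beta-2 microglobulin, and NLRC5 switches on the transcription of many of these genes. In brain, microglia and endothelial cells hold much of the class I transcript, and neurons also carry some.

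In the GENCODE M21 annotation of GRCm38, 7 of the 10 genes lie on chromosome 17: Tapbp at chr17:33915899-33929292, H2-K1 at chr17:33996017-34000347, Psmb9 at chr17:34181987-34187764, Tap1 at chr17:34187553-34197225, Psmb8 at chr17:34197721-34201454, Tap2 at chr17:34203527-34216321 and H2-D1 at chr17:35262730-35267499. B2m lies at chr2:122147686-122153083. Nlrc5 lies at chr8:94434356-94527272 and Psmb10 at chr8:105935735-105938444.

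RefSeq promoters (GRCm38.p6) were given for 8 of the 10 genes. The 250 bases before each RefSeq start were searched on both strands for 5 motifs, chosen as letters known from interferon and class I regulation. For Tapbp, Tap1, Psmb8, Psmb9 and H2-D1 all 250 bases lay in annotated exons, as did 52 for Psmb10 and 1 for B2m. The windows of Tapbp, Psmb8, Psmb9 and H2-D1 lay within the annotated span of the same gene, so they are not sequence upstream of it. The interferon regulatory factor motif, in the exact form GAAA, any 2 bases, GAAA, stood in B2m and in 3.04% of 27025 promoters. Looser forms of it were not searched for, so the lack of a match in H2-K1 or another window does not show the lack of a site. The STAT motif (TTC, any 3 bases, GAA) stood in Psmb8 and in 7.18% of promoters. The kappaB consensus stood in B2m, H2-K1 and H2-D1 and in 7.01% of promoters, and its matches in H2-K1 and H2-D1 had the same letters. TGACGC, the core of the X2 box, stood in H2-K1 and H2-D1 and in 6.14%. The CCAAT box stood in 6 of the 8 promoters and in 34.5% of all promoters. The windows of Tap1 and Psmb9 overlap, and their CCAAT matches are the same bases, so that site was counted for both. The windows below are shown because B2m, H2-K1 and Psmb8 carried the differences by CSB genotype, and H2-D1 because it shares its kappaB letters with H2-K1. Capitals mark the motifs other than CCAAT. They are matches of letters only, and binding was not measured. The windows lie at chr2:122147536-122147685 (plus strand, B2m), chr17:34000348-34000497 (minus strand, H2-K1), chr17:35262913-35262942 (plus strand, H2-D1) and chr17:34198088-34198117 (plus strand, Psmb8). The last 2 are short because they lie in annotated exons.
B2m: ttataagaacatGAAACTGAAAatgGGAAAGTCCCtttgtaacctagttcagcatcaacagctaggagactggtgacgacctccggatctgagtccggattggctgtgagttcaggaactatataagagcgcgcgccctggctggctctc
H2-K1: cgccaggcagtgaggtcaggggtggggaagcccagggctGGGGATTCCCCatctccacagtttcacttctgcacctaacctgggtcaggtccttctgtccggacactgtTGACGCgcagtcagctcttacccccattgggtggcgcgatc
H2-D1: gcccagggctGGGGATTCCCCatctcctca
Psmb8: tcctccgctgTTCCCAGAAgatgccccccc

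Values are normalised read counts with no unit, and their sums ran from 23736702 to 32247186 per library. Read depth is unknown. A pair of libraries stood apart by cerebellum markers or by Gm6768. Library 1 of DKO SD had a level of cerebellum markers of 7.29, a mean of log2(value + 1) over 12 genes, against 10.66 to 12.91 in the other libraries, and a forebrain marker level of 10.26 against 4.67 to 8.14. In it Pcp2, a Purkinje cell gene, was at 11.5 against at least 631 elsewhere, so the labelled tissue was not matched there. The library labelled WT KD 25 had 1041 for Gm6768, a gene at 0 in the other 19 WT and INDY libraries and between 929 and 1245 in the 20 CSB and DKO libraries, so it went against its label. Its Ercc6 value, 633, was the lowest of the WT and INDY libraries (718 to 1070 in the others), and the CSB and DKO libraries ran from 382 to 876. Ercc6 encodes CSB, an ATPase that acts in the repair of transcribed DNA. Values without WT KD 25, DKO SD 1 or both are given beside the results they touch. Other libraries varied in liver markers, whose level over 14 genes ran from 1.94 to 2.39 in WT SD and from 2.24 to 9.43 in CSB SD. It reached 9.10 in library 10 of INDY SD, 8.50 in library 22 of INDY KD and 7.05 in library 34 of DKO SD. The highest levels were 4.58 in WT KD, 5.77 in CSB KD and 6.24 in DKO KD. The source of these transcripts was not tested.

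Per kilobase of annotated exon, the median level over the 40 libraries was 2269 for B2m, the light chain of every class I molecule, and 730 for H2-D1, a heavy chain. Psmb10 and the other heavy chain H2-K1 followed at 199 each, then Tapbp, which encodes tapasin, at 158. The TAP subunit genes differed, with 66.9 for Tap2 and 17.5 for Tap1. Psmb8 stood at 29.4, Psmb9 at 8.11 and Nlrc5 at 4.94, the lowest of the 10. The pathway was thus measured in every member, with the light chain above the heavy chains. Heavy chain values are uncertain in part, since the H2-D1 transcript matched that of H2-K1 at 1340 of 1515 aligned bases and was 86.5% identical to H2-Q7, and the submitters' counting could split such reads.

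**Figure D1:**
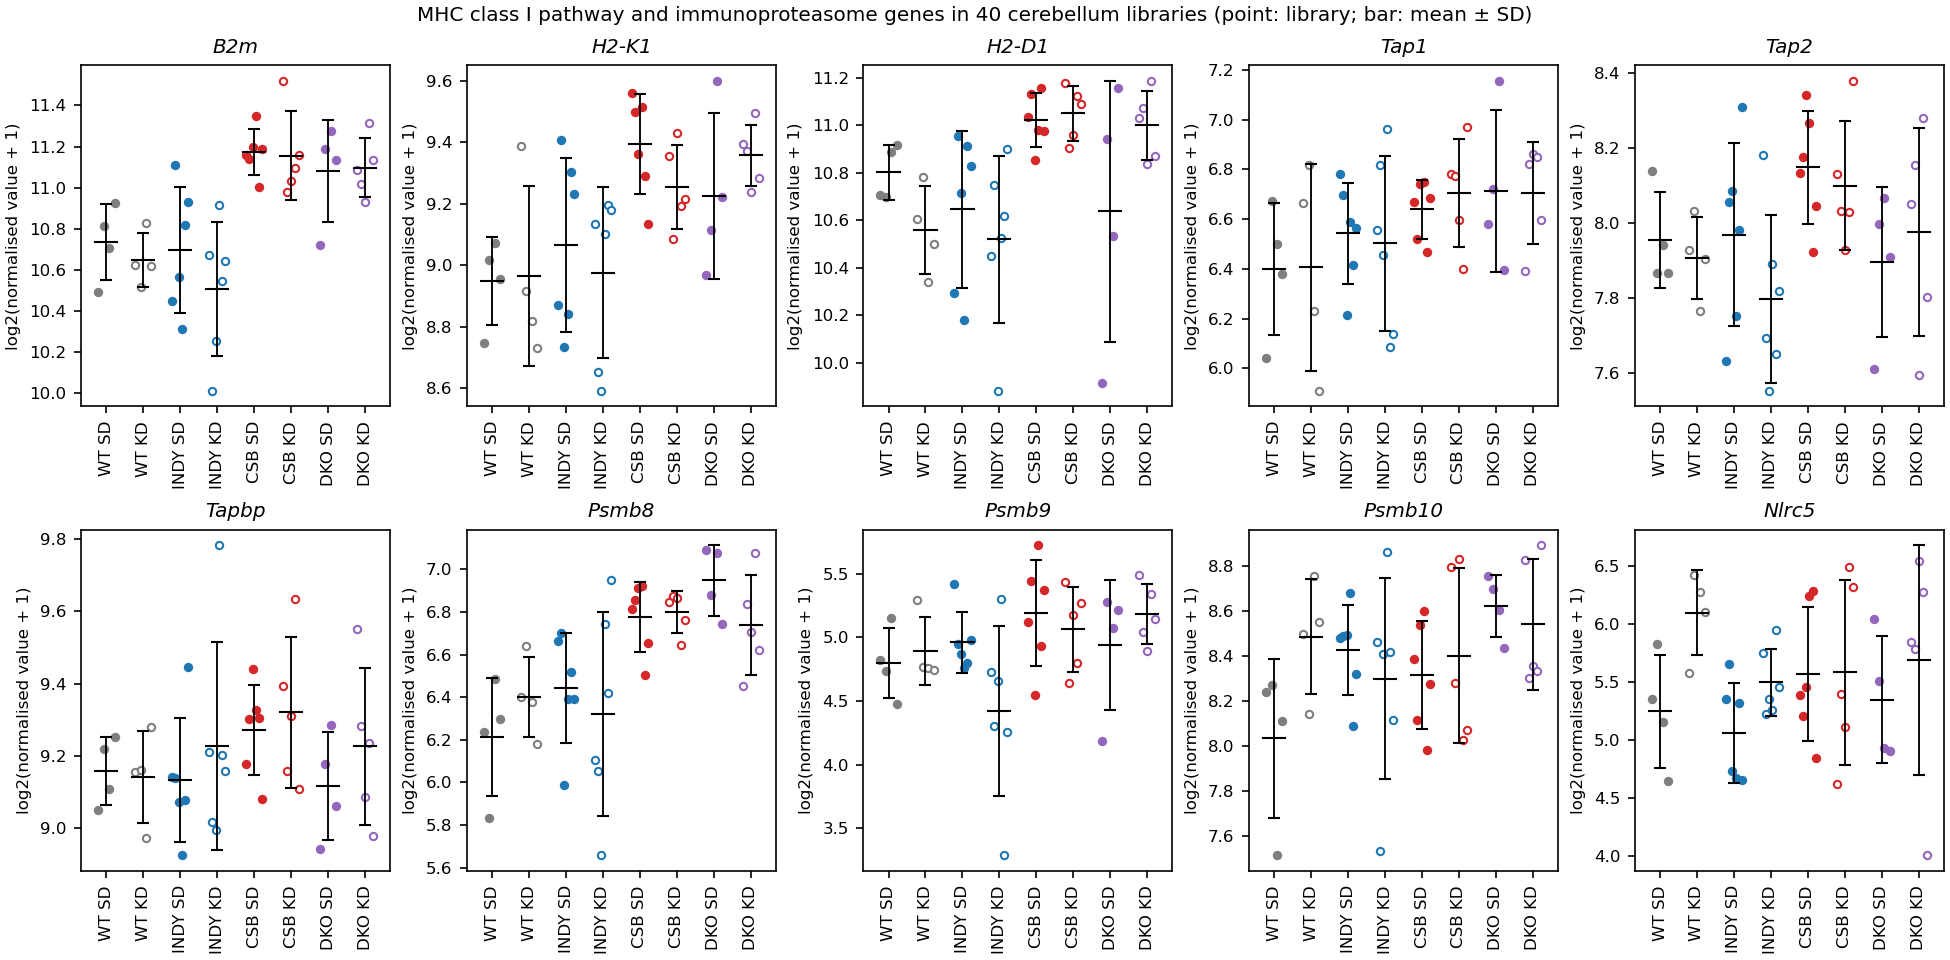
Normalised values of the 10 genes on the log2(value + 1) scale (vertical axis) in the 8 groups (horizontal axis). Points are libraries, filled for SD and open for KD, and bars show the mean ± SD. The 4 CSB and DKO groups have the 4 highest B2m means, from 2187 to 2313 as values, and the WT and INDY means run from 1485 to 1713.

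The main comparison set the CSB and DKO groups against the WT and INDY groups, averaged over both diets. B2m rose 1.39-fold, Psmb8 1.39-fold and H2-K1 1.25-fold. The other heavy chain, the peptide transporter, tapasin, the remaining immunoproteasome subunits and Nlrc5 did not pass the test. Calls numbered 3 of 10 genes, all higher, where 0.796% of all tested genes were called in either direction and 0.566% were called higher. Because the 10 genes were chosen with earlier results of these data known, these shares describe them and do not test them as a set. All 10 differences lay above 0, with a median of 0.26 on the log2 scale against 0.01 over all tested genes, and 6 of 10 had an unadjusted p under 0.05 and were higher, as were 7.05% of all genes. The background count of 170 genes moved to 1379 without library 22 of INDY KD, to 959 without library 23 of DKO KD and to 276 without library 33 of INDY SD. In bulk tissue, more cells of a type and more RNA per cell cannot be told apart.

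B2m values were 1439, 1673, 1796 and 1943 in WT SD and 1466, 1571, 1579 and 1819 in WT KD. In INDY SD they ran from 1271 to 2210 with a median of 1660, and in INDY KD from 1032 to 1932 with a median of 1547. The WT values thus lay within those of INDY. B2m ran from 2051 to 2607 in CSB SD, with a median of 2309, and was 2015, 2091, 2190, 2282 and 2935 in CSB KD. It was 1685, 2248, 2335 and 2481 in DKO SD and 1954, 2070, 2170, 2246 and 2548 in DKO KD. All 20 CSB and DKO libraries were above the WT and INDY median of 1590, and 12 were above every WT and INDY library. The lowest of the 20 was library 1 of DKO SD, the one poor in cerebellum markers. On the log2(value + 1) scale the difference was 0.48 (SE 0.07, 95% interval 0.34 to 0.62), with a Benjamini-Hochberg adjusted p of 5.1e-05 in limma. Without WT KD 25 and DKO SD 1 it was 0.52, with an adjusted p of 1.3e-05. Group means put CSB SD first (2313 ± 179, SD, n = 6), then CSB KD (2303 ± 368, n = 5), DKO KD (2197 ± 224, n = 5) and DKO SD (2187 ± 348, n = 4), which lay within their spread of each other. WT SD (1713 ± 213, n = 4), INDY SD (1691 ± 359, n = 6), WT KD (1609 ± 149, n = 4) and INDY KD (1485 ± 319, n = 6) followed, again within their spread.

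H2-K1 values were 428, 495, 517 and 537 in WT SD and 424, 451, 482 and 669 in WT KD. They ran from 425 to 679 in INDY SD (median 533) and from 385 to 585 in INDY KD (median 555). Among these 20 libraries, 1 WT and 1 INDY library exceeded the median of CSB and DKO, 640. H2-K1 ran from 561 to 754 in CSB SD (median 690) and was 542, 584, 593, 654 and 688 in CSB KD. It was 500, 553, 596 and 775 in DKO SD and 603, 623, 662, 673 and 720 in DKO KD. Of the 20 CSB and DKO libraries 19 lay above the WT and INDY median of 506, but the ranges overlapped. The log2 difference was 0.32 (SE 0.07), with an adjusted p of 0.0128. It was 0.33 without WT KD 25 and DKO SD 1 (adjusted p 0.0136).

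H2-D1 did not pass, with a log2 difference of 0.30 (SE 0.08) and a limma adjusted p of 0.092. Its values were 1659, 1672, 1893 and 1930 in WT SD and 1296, 1448, 1559 and 1761 in WT KD. They ran from 1158 to 1984 in INDY SD (median 1747) and from 942 to 1908 in INDY KD (median 1523). H2-D1 ran from 1847 to 2282 in CSB SD (median 2059) and was 1914, 1991, 2177, 2230 and 2316 in CSB KD. Every CSB library lay above every WT KD library. In DKO SD the values were 963, 1482, 1968 and 2285, the largest spread of the 8 groups for this gene, and in DKO KD they were 1825, 1871, 2093, 2154 and 2330. The lowest DKO SD value came again from library 1. H2-D1 passed the test without that library (0.36, adjusted p 0.0081), without WT KD 25 and DKO SD 1 (0.34, adjusted p 0.0163), without library 22 of INDY KD (0.30, adjusted p 0.0378) and without library 23 of DKO KD (0.31, adjusted p 0.0392).

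None of the genes for peptide transport and loading passed. Tap1 differed by 0.23 (SE 0.09, adjusted p 0.157 in limma), Tap2 by 0.12 (SE 0.07, adjusted p 0.312) and Tapbp by 0.07 (SE 0.06, adjusted p 0.58). Tap1 ran from 83.1 to 142 in CSB and DKO (median 103) and from 59.1 to 124 in WT and INDY (median 91.2). Tap2 ran from 192 to 332 (median 264) against 187 to 316 (median 238), and Tapbp from 491 to 793 (median 612) against 485 to 880 (median 567). The ranges of all 3 overlapped, though 7 WT and INDY libraries had less Tap1 than any CSB or DKO library and 2 CSB and DKO libraries had more than any WT or INDY library.

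Among the immunoproteasome genes, Psmb8, which encodes the subunit beta5i, passed. Its values were 56.0, 74.5, 77.7 and 88.6 in WT SD and 71.5, 82.2, 83.6 and 98.8 in WT KD. They ran from 62.5 to 103 in INDY SD (median 86.8) and from 49.5 to 122 in INDY KD (median 76.1). Of these 20 libraries, 13 lay below the lowest CSB or DKO value, 86.7. Psmb8 ran from 89.8 to 120 in CSB SD (median 113) and was 99.0, 108, 114, 116 and 116 in CSB KD. It was 106, 117, 134 and 135 in DKO SD and 86.7, 97.5, 103, 113 and 134 in DKO KD. All 20 lay above the WT and INDY median of 82.9. The log2 difference was 0.47 (SE 0.09, 95% interval 0.29 to 0.65), with a limma adjusted p of 0.00205, and 0.46 without WT KD 25 and DKO SD 1 (adjusted p 0.00706). Psmb9, which encodes beta1i, ran from 17.2 to 51.9 in CSB and DKO (median 34.7) and from 8.77 to 41.7 in WT and INDY (median 26.1), a difference of 0.33 (SE 0.13, adjusted p 0.177). Psmb10, which encodes beta2i, ran from 251 to 475 against 182 to 464, with medians of 339 and 340 and a difference of 0.16 (SE 0.10, adjusted p 0.377).

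Nlrc5 ran from 15.1 to 92.5 in CSB and DKO and from 24.0 to 84.9 in WT and INDY. Both ends of the CSB and DKO range came from DKO KD. The log2 difference was 0.07 (SE 0.19, 95% interval -0.31 to 0.46, adjusted p 0.878 in limma), so its interval was the widest of the 10.

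**Figure D2:**
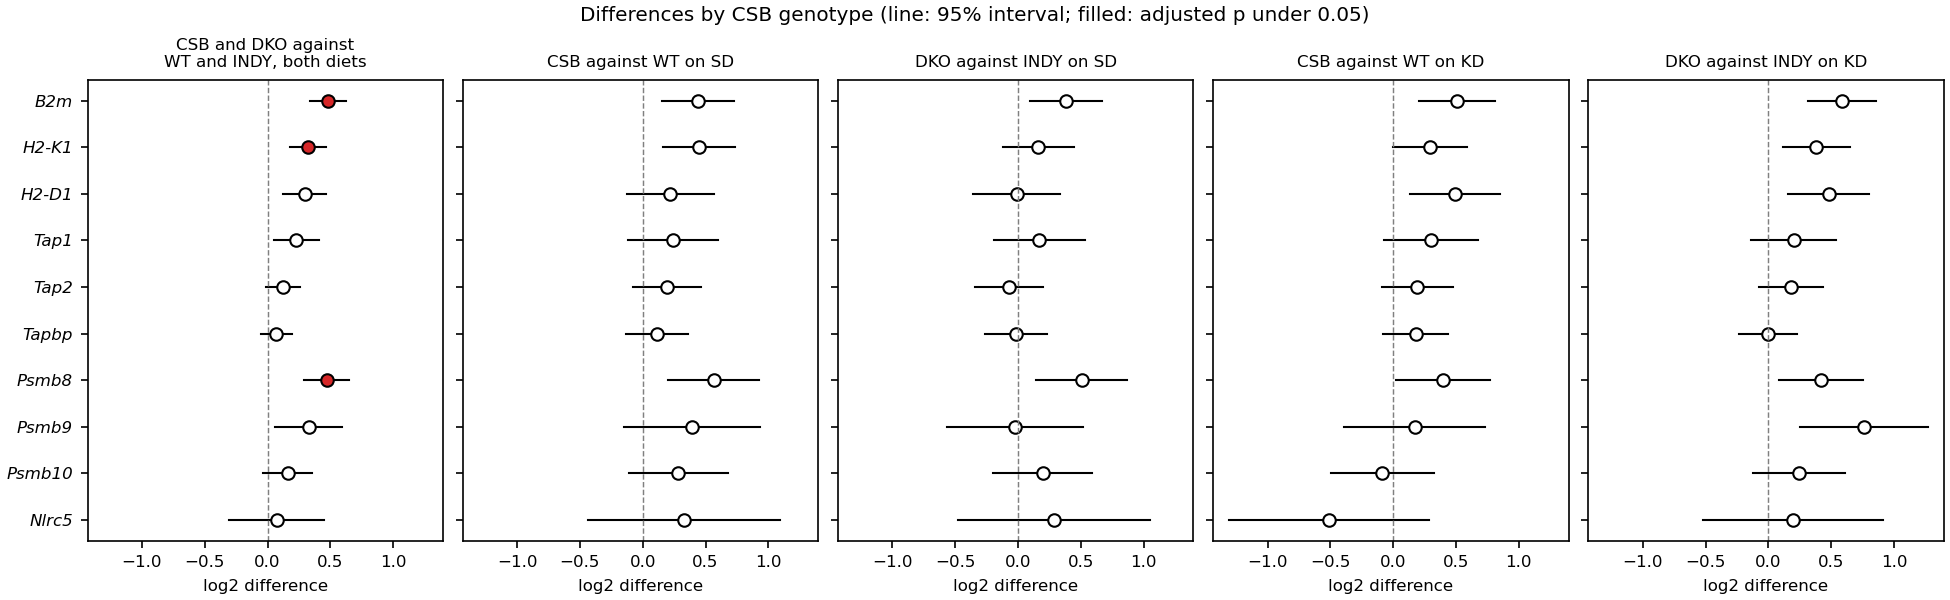
Log2 differences (horizontal axis) of the 10 genes (vertical axis) by CSB genotype, averaged over diets and in the 4 single comparisons. Lines are 95% intervals, and filled points have an adjusted p under 0.05. B2m, H2-K1 and Psmb8 are filled in the average, at 0.48, 0.32 and 0.47, and no gene is filled in a single comparison.

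Genes around the 10 were described from lists, which were also chosen with earlier results of these data known. None of the 3 constitutive catalytic subunits passed: Psmb5 differed by 0.13 (adjusted p 0.236), Psmb6 by 0.13 (0.253) and Psmb7 by 0.11 (0.327). Calls were also 0 of 11 among the other 20S proteasome subunits (median 0.10, Psmb1 at 0.14), 0 of 18 among 19S subunits (median 0.08, Adrm1 at 0.13) and 0 of 9 among activators and assembly factors, where Psme4 was at -0.16 and Psme2, a subunit of the interferon-inducible activator PA28, at 0.15. Unadjusted p-values under 0.05 numbered 5 of 11 and 6 of 18 in the first pair of lists, all higher, against 7.05% of all genes that were higher at that limit, and all 11 and all 18 differences were above 0. No other class I chain passed among 15 tested, with 4 unadjusted p-values under 0.05. There H2-Q7 was at 0.46 (adjusted p 0.103) and H2-T23, the mouse Qa-1 chain, at 0.24 (adjusted p 0.0981). The folding factors of the endoplasmic reticulum gave 0 of 8, with the disulfide isomerase Pdia3 at 0.11, and the cytosolic peptidases 0 of 7, with Lap3 at 0.17. The 6 MHC class II genes gave 0 calls and 1 unadjusted p under 0.05, that of H2-DMb1 (0.25).

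Of 17 regulators of class I transcription, 1 rose: Irf8, an interferon regulatory factor of myeloid cells, differed by 0.58 (limma adjusted p 0.00834). Irf9, part of the interferon-activated ISGF3 complex, was at 0.35 (adjusted p 0.0575). The 8 tested interferon receptor and signalling genes gave 0 calls, with Ifnar2 at 0.16 and Ifngr1 at 0.12. Of 18 interferon-stimulated genes 2 rose: Bst2, a membrane tether of viral particles, by 0.57 (adjusted p 0.0234) and Irgm1, an interferon-inducible GTPase, by 0.36 (adjusted p 0.0489). That list had a median of 0.34, and 18 of 18 members were above 0. Over all tested genes, 0.566% were called higher in this contrast. Of the receptors for class I and lymphocyte genes, 5 of 15 were abundant enough to test and 1 rose, Lilrb4a, an inhibitory receptor of myeloid cells, by 0.99 (adjusted p 0.0358). Genes of T and NK cells in that list ranged widely. Trac, a T cell receptor chain, had a median of 49.1 (16.1 to 73.4), Cd8a of 15.6 and Cd8b1 of 11.6, each above 0 in every library. The killing genes Prf1 and Gzmb were at 0 in 21 and 19 of 40 libraries.

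Marker genes of cells and tissues, from lists chosen in that way too, were examined in the same contrast. Of 18 microglia markers 7 rose, where 0.566% of all tested genes were called higher, and the list's median was 0.38. The C1q genes, Trem2 and Tyrobp were among those 7, while the homeostatic markers P2ry12 (-0.13) and Tmem119 (-0.07) did not pass, and no marker of the list was at 0 in any library. The microglia level, a mean of log2(value + 1), was 8.25 ± 0.19 (SD, n = 4) in WT and 8.64 ± 0.22 (n = 6) in INDY on SD, and 8.76 ± 0.29 (n = 4) and 8.54 ± 0.45 (n = 6) on KD. It was 8.95 ± 0.33 in CSB SD, 8.84 ± 0.27 in CSB KD, 9.12 ± 0.14 in DKO SD and 8.90 ± 0.13 in DKO KD. The ranges of WT SD and DKO SD did not overlap. With that level as a covariate, B2m kept its call (0.34, adjusted p 0.0214 in limma), as did Psmb8 (0.40, adjusted p 0.0392). H2-K1 lost it (0.29, adjusted p 0.0607), H2-D1 gained one (0.47, adjusted p 0.00889) and the sign of Psmb10 turned (-0.17, adjusted p 0.288). None of 12 endothelial markers passed (median -0.01), nor did any of 12 forebrain (0.16), 12 cerebellum (-0.13), 12 choroid plexus (0.21), 5 blood cell (-0.08) or 14 liver markers (0.71), and 1 of 10 astrocyte markers rose, Gfap at 0.71. Since 7 of the 18 microglia markers rose by CSB genotype, that covariate moved with the genotype compared. It therefore cannot tell the number of microglia from RNA per cell, and the part of these cells in the differences was not tested.

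Relations of the 10 genes to 7 marker levels were computed over 40 libraries after subtracting group means, 70 in all, and r had an adjusted permutation p under 0.05 in 9. Psmb10 went with the microglia level (r = 0.74, rho = 0.66, permutation p 1e-05 and 4e-05, adjusted 0.0007 and 0.00175). The first of these p-values is the smallest that the permutations can give. Without the 2 libraries farthest from the median, r was 0.64. H2-D1 went with the astrocyte level (r = 0.75, rho = 0.69, permutation p 4e-05 and 9e-05, adjusted 0.000933 and 0.0021, and r = 0.72 without the 2 farthest). B2m (r = 0.54, rho = 0.56, adjusted permutation p 0.0253 and 0.0172) and Tap2 (r = 0.53, rho = 0.53, adjusted 0.00892 and 0.0163) went with that level too, and r was 0.52 for each without the 2 farthest. H2-D1 also went against the forebrain level (r = -0.78, rho = -0.73, adjusted permutation p 0.000933 and 0.00175). By that level the libraries split into 28 with a level up to 6.5 and 12 above it. Within these sets r was computed without subtracting group means. That of H2-D1 with the forebrain level was -0.16 in the 28 libraries and -0.66 in the 12, and with the astrocyte level 0.58 and 0.70. Psmb10 had r of 0.73 and 0.64 with the microglia level in these sets. Also without subtracting group means, r with the microglia level in the 28 libraries was 0.82 for B2m, 0.65 for Psmb8 and 0.63 for H2-K1. In the 12 it was 0.38, 0.29 and 0.07, a description with no test. These values hold the differences between groups. They are thus not comparable with those over all 40 after subtracting group means (0.44, 0.18 and 0.09). The remaining 4 relations with an adjusted p under 0.05 were those of H2-K1 to the endothelial level (r = 0.44) and of H2-D1 (0.51), Tap2 (0.46) and Tapbp (0.46) to the blood cell level, each with an adjusted permutation p of 0.046. By rho, those of H2-K1 (0.47, adjusted permutation p 0.0436) and Tap2 (0.49, 0.0358) stayed under 0.05. Those of H2-D1 (0.39, 0.126) and Tapbp (0.42, 0.0766) did not. After leaving out those 12 libraries, H2-D1 differed by 0.35 by CSB genotype (adjusted p 0.00167 in limma), and B2m (0.50, 0.00167), H2-K1 (0.33, 0.0367) and Psmb8 (0.48, 0.0341) kept their calls. That setting leaves 1 WT KD library, whose spread was taken from the other groups.

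**Figure D3:**
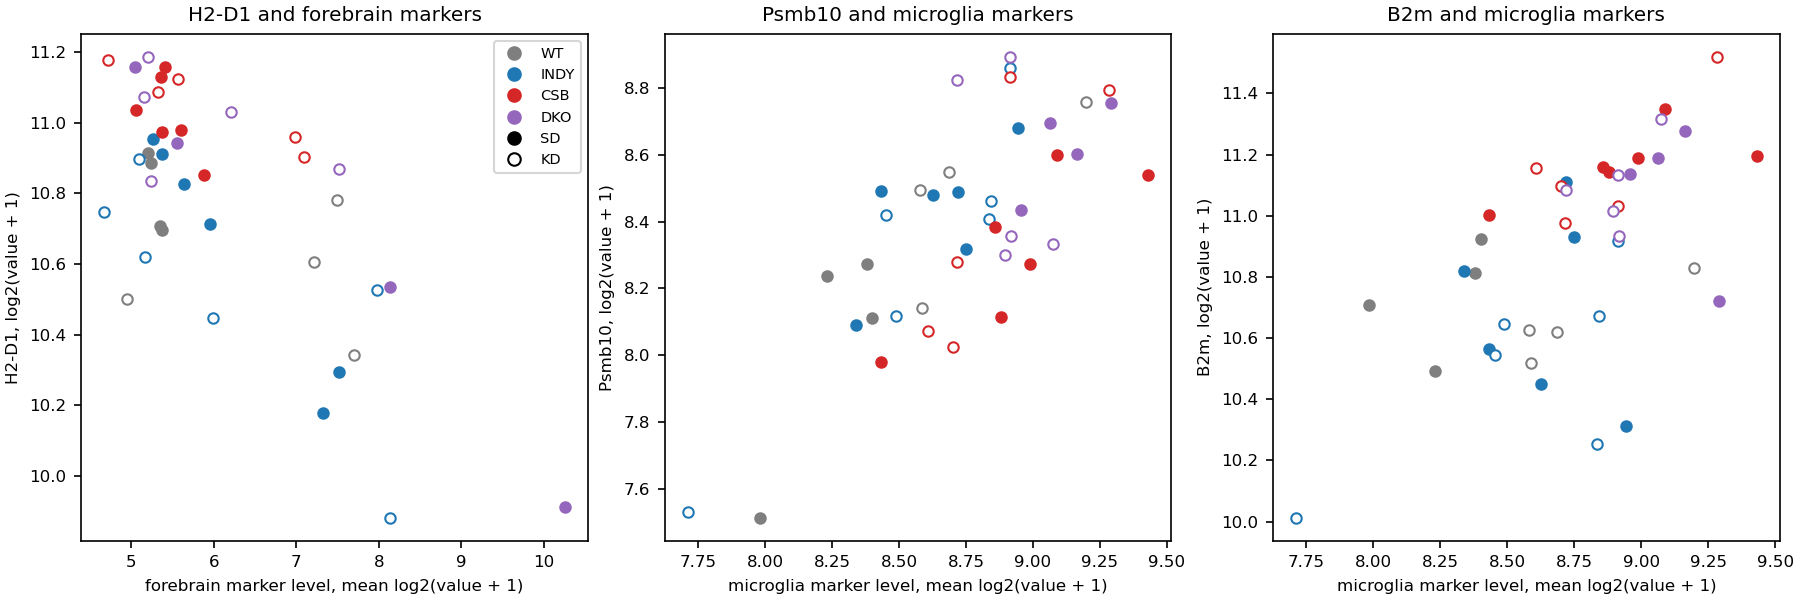
H2-D1 against the forebrain level, and Psmb10 and B2m against the microglia level, as log2(value + 1) in each of 40 libraries. Colours are genotypes, filled points SD and open points KD. Library 1 of DKO SD has the highest forebrain level in the plot of H2-D1, with a forebrain level of 10.26 and an H2-D1 value of 963.

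The ratio of each immunoproteasome subunit to its constitutive counterpart was taken within a library, which cancels the library's scaling. The Psmb8 to Psmb5 ratio was 1.27-fold higher in CSB and DKO than in WT and INDY. The log2 ratio was -3.15 ± 0.24 (SD, n = 20) against -3.49 ± 0.31 (n = 20), a difference of 0.34, with a two-sided permutation p of 0.00046 and 0.00138 after adjustment over 3 ratios. It was above the WT and INDY median in 17 of 20 CSB and DKO libraries. Group means ran from -3.31 in DKO KD to -3.05 in CSB KD, and from -3.59 in WT KD to -3.39 in WT SD among the WT and INDY groups. Without WT KD 25 and DKO SD 1 the difference was 0.31 (adjusted permutation p 0.00426). The Psmb9 to Psmb6 ratio differed by 0.24 (permutation p 0.0709, adjusted 0.106) and was above that median in 16 of 20. It passed without library 1 of DKO SD (0.29, adjusted permutation p 0.0334) and without library 41 of WT SD (0.29, adjusted permutation p 0.0431), and also without WT KD 25 and DKO SD 1 (0.28, adjusted permutation p 0.049). The Psmb10 to Psmb7 ratio differed by 0.03 (permutation p 0.664), with 11 of 20 above.

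**Figure D4:**
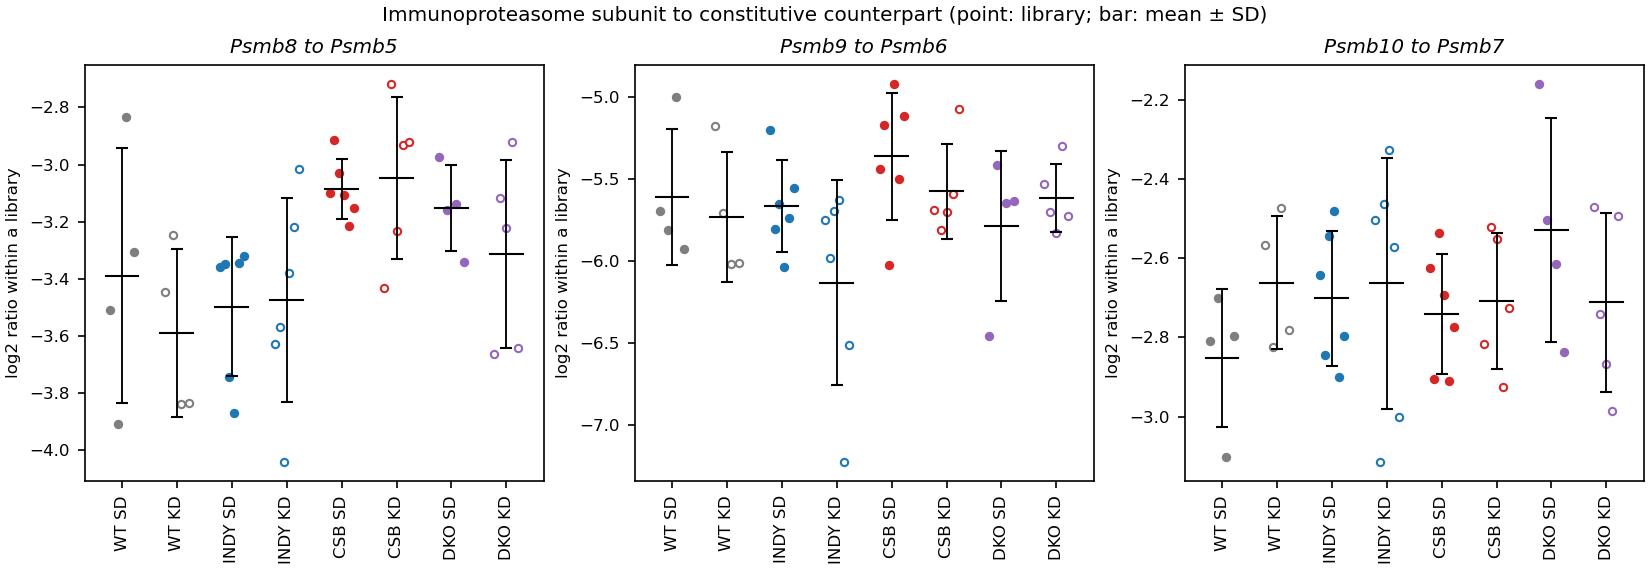
Log2 ratio of each immunoproteasome subunit to its constitutive counterpart (vertical axis) by group (horizontal axis). Points are libraries and bars the mean ± SD. The Psmb8 to Psmb5 ratios of CSB SD lie above the mean of WT and INDY, -3.49, in every library. Those of DKO KD run from -3.66 to -2.92, on both sides of that mean, and those of WT SD from -3.91 to -2.83.

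Single comparisons by CSB genotype had fewer libraries, and none of the 10 genes passed in any of them. CSB against WT on SD gave 0 of 10 calls (0.136% of all genes) and 3 unadjusted p-values under 0.05 (7.88% of all genes). DKO against INDY on SD gave 0 calls (0.0608%) and 2 such p-values (6.16%). CSB against WT on KD gave 0 calls (0.00468%) and 3 such p-values (8.23%), and DKO against INDY on KD 0 calls (0.0983%) and 5 (8.34%). B2m had an unadjusted p under 0.05 in all 4, as did Psmb8. B2m was at 0.44, 0.38, 0.51 and 0.59 on the log2 scale in that order, with limma adjusted p-values of 0.459, 0.696, 0.545 and 0.0659. Psmb8 was at 0.56, 0.51, 0.40 and 0.42, and H2-K1 at 0.45, 0.16, 0.29 and 0.38. H2-D1 was at 0.22, -0.01, 0.49 and 0.48. Without library 1 of DKO SD the DKO against INDY difference on SD was 0.23 for H2-D1 and 0.50 for B2m. On KD, B2m passed in limma without that library (adjusted p 0.0446), without library 10 of INDY SD (0.0479), without library 22 of INDY KD (0.0162) or without library 13 of CSB KD (0.0462). Only library 22 of INDY KD belongs to the groups compared on KD, and without it the difference was 0.67. Without each of the others it stayed at 0.59, so only the shared spread and the adjustment changed. Without WT KD 25, the CSB against WT differences on KD were 0.57 for B2m, 0.24 for H2-K1, 0.42 for H2-D1 and 0.39 for Psmb8, with no call. The widest difference was that of Psmb9 in DKO against INDY on KD, 0.76 (SE 0.25, adjusted p 0.424), where INDY KD reached down to 8.77.

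Groups did not overlap for some of these genes. In CSB against WT on SD, every CSB library lay above every WT library for B2m, H2-K1 and Psmb8, as for 1.59% of all genes. On KD this held for B2m, H2-D1 and Psmb8 (1.45% of genes). For DKO against INDY it held for Psmb8 on SD (0.786%) and for B2m and H2-K1 on KD (0.417%). Psmb8 was thus separated in 3 of the 4 comparisons, and B2m in 3.

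DKO against WT on SD, which shares its WT libraries with CSB against WT, called Psmb8 (0.73, SE 0.19, limma adjusted p 0.0377), 1 of the 10 genes, where 5.92% of all genes were called. Unadjusted p-values under 0.05 numbered 3 of 10, against 31.5% of all genes. Psmb8 and Psmb10 (0.59, adjusted p 0.0681) did not overlap between these groups, nor did 9.28% of all genes, all higher. The Psmb8 call was lost without any 1 of the 4 WT SD libraries (adjusted p 0.0637 to 0.0977), without library 1 of DKO SD (0.0723) and without library 35 of DKO SD (0.0637). Psmb10 passed without library 20 of INDY KD (0.0412), which is in neither group, and its difference stayed at 0.59. The 1265 genes called in all fell to 23, 400, 12 and 65 without WT SD 39, 40, 41 and 42, to 101 without DKO SD 1 and to 44 without DKO SD 35, and rose to 2669 without INDY KD 20 and 2514 without INDY KD 22. The microglia levels of these groups did not overlap (7.98 to 8.40 against 8.96 to 9.29), and with that level as a covariate Psmb8 was at 0.59 (adjusted p 0.891) and Psmb10 at -0.11 (adjusted p 0.98). DKO against WT on KD gave 0 of 10 calls (0.00936% of genes), with unadjusted p-values under 0.05 for B2m (0.45), H2-K1 (0.39) and H2-D1 (0.44), as for 6.39% of genes. Without WT KD 25 these 3 were at 0.51, 0.35 and 0.37, again with no call.

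The INDY genotype, averaged over diets, changed none of the 10 genes in limma (0 of 10 called, against 0.014% of all genes, and no unadjusted p under 0.05, against 9.38%). The differences ran from -0.23 for Nlrc5 to 0.16 for Psmb10, with a median of -0.06. The 95% interval of B2m was -0.23 to 0.06 and that of Psmb8 -0.11 to 0.24. INDY against WT gave 0 of 10 calls on SD (0.00468% of genes) and on KD (0.00936%), and DKO against CSB 0 of 10 on SD (0.00468%) and on KD (0.0281%). Unadjusted p-values under 0.05 numbered 0, 0, 1 and 0 of 10 in that order, against 14.3%, 6.59%, 13.6% and 1.73% of all genes. The single one was H2-D1, at -0.38 in DKO against CSB on SD (adjusted p 0.325), where library 1 holds the lowest value. Without that library the difference was -0.14.

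Diet gave no call among the 10 genes in limma. KD against SD averaged over genotypes called 0 of 10, as it called 0% of all genes, with 1 unadjusted p under 0.05 (3.16% of all genes), that of Nlrc5, the transactivator (0.41, SE 0.19, p 0.0347, adjusted p 1.0). In WT, Nlrc5 was 24.0, 34.6, 40.0 and 56.0 on SD and 46.9, 68.0, 76.7 and 84.9 on KD, a difference of 0.85 (SE 0.41, adjusted p 0.366). The groups overlapped by 1 library of each. Without WT KD 25 the difference was 0.79 (adjusted p 0.687), and that of Psmb10 in WT 0.36. Diet within WT and within INDY called 0 of 10 (0% of genes in each), within CSB 0 of 10 (0%) and within DKO 0 of 10 (0.00468%). Unadjusted p-values under 0.05 were those of Psmb10 (0.45) and Nlrc5 in WT (13.4% of all genes), Psmb9 in INDY (-0.54, 4.63%) and H2-D1 in DKO (0.36, 8.11%), and none in CSB (3.43%). Without library 1 of DKO SD, H2-D1 was at 0.12 in DKO.

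Differences between effects were tested as interactions. CSB effect on KD minus that on SD called 0 of 10 genes (0% of all genes), with H2-D1 at 0.38 (unadjusted p 0.0311, adjusted p 0.532 in limma) as the 1 gene with an unadjusted p under 0.05, against 9.08% of all genes. It was at 0.26 without library 1 of DKO SD. The CSB effect in mice with the INDY genotype minus that in mice without it called 0 of 10 (0%), with 0 unadjusted p-values under 0.05 (3.1% of all genes). The diet response of INDY minus that of WT called 0 of 10 (0.014%), where Psmb10 at -0.58 (adjusted p 0.333) was the 1 gene with an unadjusted p under 0.05 (14.3%). It was at -0.49 without WT KD 25. For B2m the first interaction had a 95% interval of -0.15 to 0.43 and the second of -0.28 to 0.30, and for Psmb8 these were -0.48 to 0.23 and -0.38 to 0.34.

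The 10 genes varied together in part. Over the 40 libraries, after subtracting group means, Pearson's r was highest for B2m and H2-K1 (0.66), the chains that pair in one molecule, followed by B2m and Tapbp (0.51). The lowest was that of H2-D1 and Psmb10 (-0.41). Nlrc5 had r between -0.27 and 0.09 with the other 9. These are descriptions, since the points share libraries and scaling. Outside the 10, the tested genes most like B2m were Ghitm (0.78), Fundc1 (0.78) and Minar1 (0.77), and those most like Tapbp were Vstm4 (0.74), Smo (0.73) and Agtrap (0.71). Psmb8 was most like Msrb3 (0.56), Zbp1 (0.55) and Nqo1 (0.54), and Nlrc5 most like Gm37806 (0.62), Lactb2 (0.57) and Itgav (0.56).

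**Figure D5:**
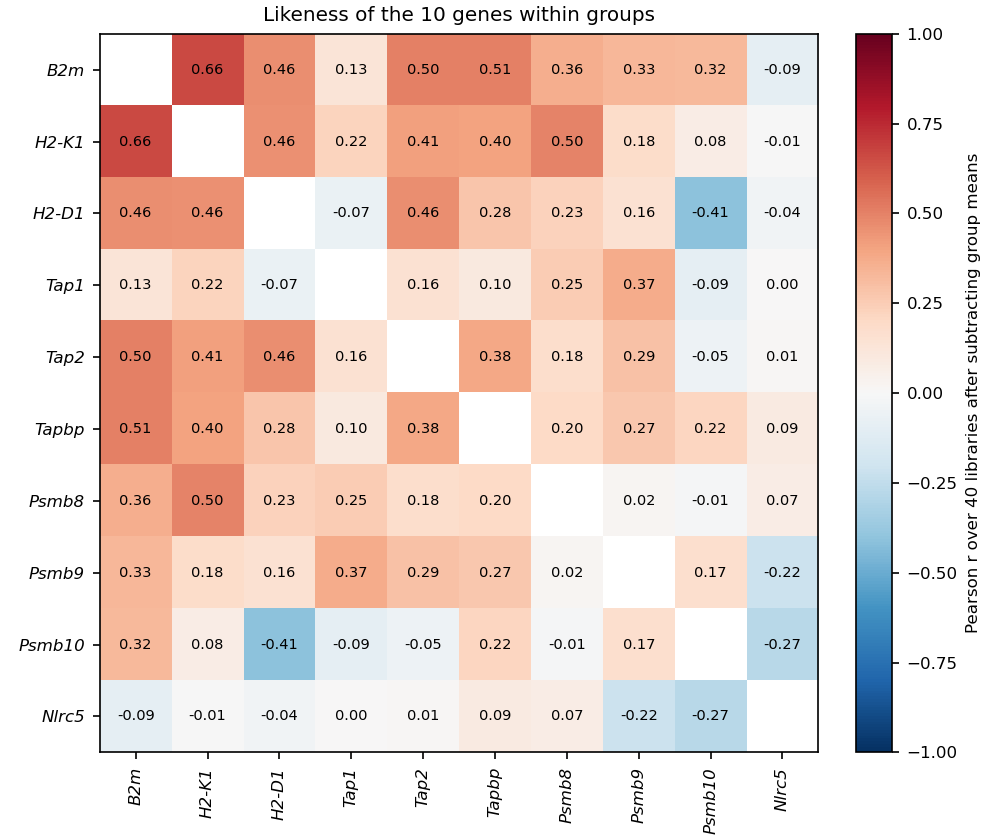
Pearson's r between the 10 genes over 40 libraries after subtracting group means, as numbers and colours from -1 to 1. The chain genes B2m, H2-K1 and H2-D1 stand between 0.46 and 0.66 with each other, and the Nlrc5 row runs from -0.27 to 0.09.

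Some positions overlap other genes. B2m lies wholly within Patl2 on the other strand, whose value ran from 0 to 12.7. Psmb10 lies within the antisense gene Gm16156 (0 to 1.08). Tap1 and Psmb9 start head to head and share 212 bases, and Tapbp shares 3422 bases with Zbtb22 (394 to 553) on the same strand. Whether the counting used strand is not given in the sources used here, so reads of Tap1 and Psmb9 in the shared stretch cannot be told apart. Strand would not separate reads of Tapbp and Zbtb22 in theirs.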

How the data were processed

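The authors deposited a signal per gene and library, a normalised estimated read count. Per the submitters' processing notes, Bowtie2, Salmon and DESeq2 were used with build mm9, for which no version is given. The median ratio to the geometric mean over genes was equal in all libraries. Read steps of 0.883 to 1.15 gave whole numbers (within 0.02) for 12.6% to 64.3% of low values, so counts were not recovered and depth is unknown. All 40 columns were mapped by name.

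Gene names came from GENCODE M21 on GRCm38 by gene ID (53444 of 54331 with version, 54097 without), which differs from mm9, so positions are those of the annotation. Genes that reached 10 in 4 or more libraries were tested on log2(value + 1) by limma 3.58.1 (R 4.3.3, data.table in version 1.17.8), a single fit of 8 group means, trend and robust variances, and Benjamini-Hochberg adjustment over 21367 genes, with calls under 0.05. Ratios used 100000 resamples (scipy 1.17.1, Python 3.11.15), and relations to markers permuted libraries within groups. Transcripts were compared with minimap2 2.31-r1302, and plots drawn with matplotlib 3.10.9. The steps were tested on simulated data. Alternatives were pseudocounts of 0.5 and 5, no filter, the compared groups alone, marker levels as covariates and each of 40 libraries left out.

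The members and lists were chosen with earlier results of these data known. The motifs, the forebrain limit of 6.5, Gm6768, the marker relations and the joint removal of WT KD 25 and DKO SD 1 were chosen after seeing the data. The genes named were the 10 members, Psmb5 to Psmb7, called genes of each list other than markers (up to 5, or the 2 with the smallest p where none was called, of which some lists show 1), the 3 genes most like B2m, Tapbp, Psmb8 and Nlrc5, and some markers chosen after their values were seen.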

Additional observations from a re-analysis of the deposited data

Results flagged for a closer look

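In 80 groups of 4 to 6 libraries (10 genes in 8 groups), 3 held a library whose gap to the next exceeded Dixon's 95% critical value, and chance gives about 1 in 20 groups. Tapbp in INDY KD was 880 in library 22, where the other 5 libraries ran from 509 to 591. Psmb9 in WT KD was 38.2 in library 7, where the other 3 ran from 25.8 to 26.2. Psmb9 in INDY SD was 41.7 in library 9, where the other 5 ran from 26.1 to 30.5. All 3 were high, and neither Tapbp nor Psmb9 was called by CSB genotype.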

How the results depend on the processing

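Averaged over diets, 3 or 4 of the 10 genes were called by CSB genotype in each of 49 alternatives, and B2m and Psmb8 were called in all 49, with adjusted p-values up to 0.0214 and 0.0392. H2-K1 was called in 48, losing its call with the microglia covariate (0.29), and H2-D1 gained one in 7, among them forebrain and liver levels as covariates (0.28, adjusted p 0.00424). Signs turned for Psmb10 with the microglia covariate (-0.17 averaged over diets, -0.11 in DKO against WT on SD) and for H2-K1 in DKO against INDY on SD without the libraries with a high forebrain level (-0.00071), and the cause was not tested. All genes called in that average, 170 here, were 684 with the microglia covariate, 767 without the high-forebrain libraries and 120 to 1379 with 1 library left out. For DKO against WT on SD, 1 gene of the 10 was called, but 0 with no filter, with only the compared groups, with either covariate setting, without the high-forebrain libraries and without WT KD 25 and DKO SD 1, and 0 to 2 with 1 library left out. All genes called there, 1265, were 69 with no filter, 7 with forebrain and liver covariates, 2 with the microglia covariate, 126 without WT KD 25 and DKO SD 1, and 12 to 2669 with 1 library left out. DKO against INDY on KD called 1 gene, B2m, without WT KD 25 and DKO SD 1, and 0 to 1 with 1 library left out. Neither WT KD 25 nor DKO SD 1 belongs to those groups, and the B2m difference stayed at 0.59. The Psmb9 to Psmb6 ratio differed by 0.17 to 0.29 with 1 library left out and by 0.28 without WT KD 25 and DKO SD 1, where it passed. No paired analysis was possible because library numbers are not shared between groups. Unknown depth limits what can be said of Nlrc5 and Psmb9, the lowest of the 10 genes.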
